A study of Mus musculus with 7 samples.

Results

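Polycomb repressive complex 2 (PRC2) is the histone methyltransferase that places methyl groups on lysine 27 of histone H3 (H3K27). Its transcripts were taken as 9 genes fixed by symbol: Ezh2, Ezh1, Eed, Suz12, Rbbp4, Rbbp7, Jarid2, Mtf2 and Phf19. All 9 were found among the 51138 genes of the count table, each with 1 identifier, and all 9 passed the filter on low counts. RNA came from regulatory T cells (Tregs), the Foxp3-expressing T cells that restrain immune responses, sorted from spleens of C57/BL6 mice that carried a red fluorescent Foxp3 reporter. One group (4 samples) received 20 µg of FP, a fusion of interleukin-2 with CD25, the alpha chain of its receptor. The other group (3 samples) received 100 µL of PBS, and both were taken 72 h after the injection. All mice of both groups carried the reporter, and the labels give neither age nor sex. The labels do not say whether each sample came from a separate mouse, so each p value reflects only how far these samples spread, which may be technical.

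A working PRC2 holds a catalytic subunit, either Ezh2 or its homologue Ezh1, with the core subunits Eed, Suz12 and a histone-binding protein, Rbbp4 or Rbbp7. Accessory subunits define alternative assemblies: the Polycomb-like proteins Mtf2, Phf19 and Phf1 join PRC2.1, whereas Jarid2 and Aebp2 join PRC2.2. The resulting H3K27 trimethylation marks repressed genes. Ezh2 is known to be abundant in dividing cells, and Ezh1 is retained in resting ones. In T cells Ezh2 is induced on activation, and activated Tregs are known to need it to keep their identity.

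Promoter windows of these genes are shown first as a description of their sequence, and a part of these motifs in the changes was not tested. RefSeq windows (GRCm38.p6) that run from 250 bases upstream of a start site to 50 bases downstream were found for all 9 genes, with a second window for Jarid2 and Mtf2. The E2F-type motif was searched as TTTCCCGC, TTTCGCGC, TTTGCCGC or TTTGGCGC on both strands. It was found for 3 of 9 members, namely Ezh2, Suz12 and Phf19. The same search matched 2.60% of 27025 genes with a window and 4.60% of 10190 genes that were also tested here. Among the S phase genes with a window it matched 7 of 15, and among those of G2 and mitosis 1 of 16. The 3 sites are printed 5′ to 3′ on the strand of the gene, with the match in capitals.

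Ezh2, chr6:47595009-47595038, minus strand, first base of the match at position 4 after the start site: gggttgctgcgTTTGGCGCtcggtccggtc
Suz12, chr11:79992876-79992905, plus strand, first base at position -219: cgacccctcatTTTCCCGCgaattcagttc
Phf19, chr2:34914166-34914195, minus strand, first base at position -208: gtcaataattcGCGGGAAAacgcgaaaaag

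The upstream 250 bases of the homologues Ezh2 and Ezh1 are printed below, with CCAAT or its reverse complement ATTGG in capitals. That box, bound by NF-Y, stood at 3 places in the Ezh2 window. Neither it nor an E2F-type motif was found in the Ezh1 window. CCAAT was present in 7 of 9 members (for Mtf2 only in the second window), against 42.5% of the genes tested. It was also not found in the window of Phf19. Among the S phase genes with a window CCAAT matched 11 of 15, and among those of G2 and mitosis 13 of 16.

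Ezh2, chr6:47595031-47595280, minus strand: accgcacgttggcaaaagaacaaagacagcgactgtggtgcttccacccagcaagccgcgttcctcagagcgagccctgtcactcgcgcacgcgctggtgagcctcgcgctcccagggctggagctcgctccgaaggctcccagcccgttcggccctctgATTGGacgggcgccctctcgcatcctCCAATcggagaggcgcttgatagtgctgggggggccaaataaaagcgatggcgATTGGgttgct
Ezh1, chr11:101226464-101226713, minus strand: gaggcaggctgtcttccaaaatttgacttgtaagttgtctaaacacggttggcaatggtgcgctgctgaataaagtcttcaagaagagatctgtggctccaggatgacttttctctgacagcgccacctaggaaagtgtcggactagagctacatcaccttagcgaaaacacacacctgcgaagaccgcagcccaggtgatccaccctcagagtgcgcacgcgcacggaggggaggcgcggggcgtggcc

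TTTGAA, the core of the CHR element of mitotic genes, was found for 3 members (Eed, Suz12 and the second window of Mtf2), against 14.9% of the genes tested. It was found for 11 of 16 genes of G2 and mitosis. A match of letters is not a binding site, and no binding was measured here.

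The comparison of FP with PBS asks which Treg transcripts differ between the groups at 72 h. Of the 9 members, 6 rose (Ezh2, Phf19, Rbbp7, Rbbp4, Suz12 and Eed), 2 fell (Jarid2 and Ezh1) and Mtf2 did not pass. These 8 calls compare with 39.5% of the 15954 genes tested that passed in either direction (21.0% higher and 18.5% lower). The groups did not overlap for those same 8 members, against 46.7% of all genes. The median log2 fold change was 0.64 over the members and -0.05 over all genes tested. Levels are given as CPM, counts relative to the TMM-scaled library size. The counts behind them ran from 33 to 3515 per gene and library. RNA was measured over whole sorted populations, so fewer cells of a kind and less RNA per cell cannot be told apart.

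**Figure D1:**
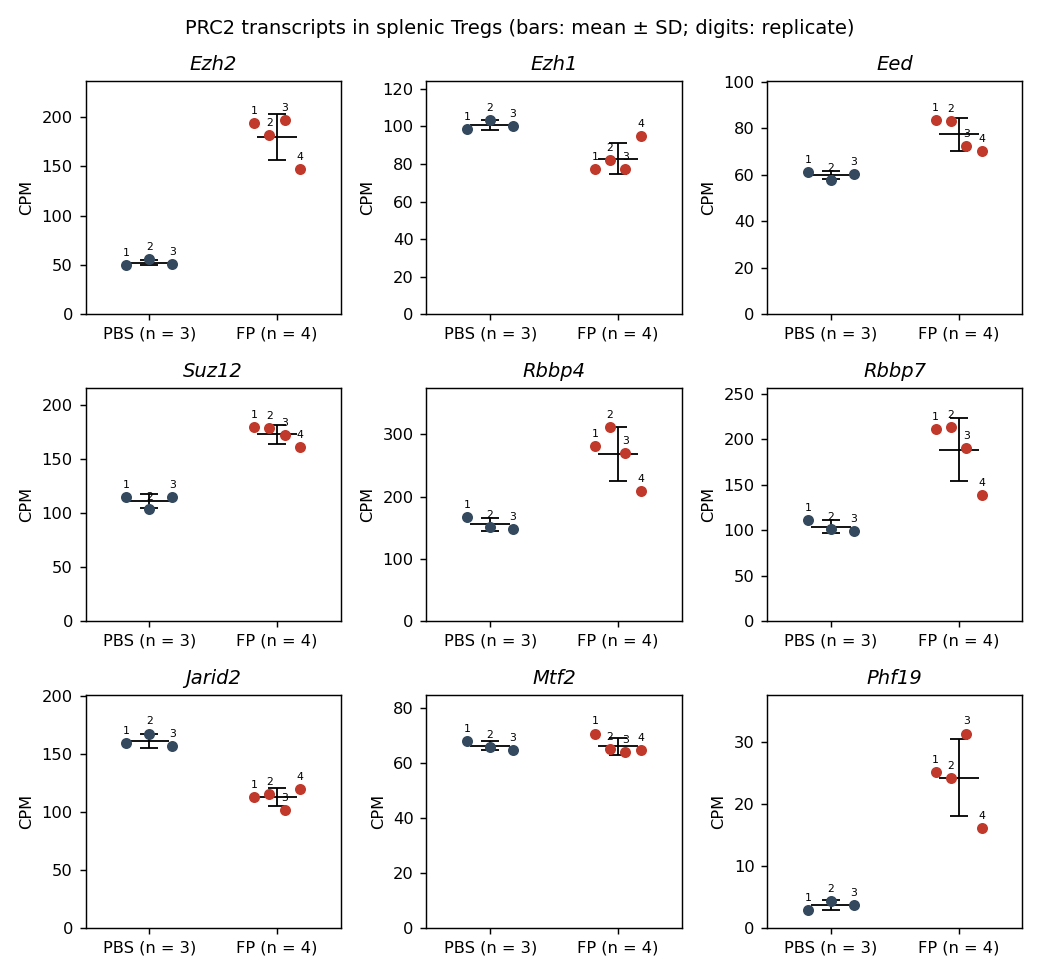
CPM (scaled by TMM factors, linear axes from 0) of each PRC2 gene in the 3 PBS and 4 FP libraries, with points numbered by replicate and bars giving mean ± SD. The groups do not overlap for 8 genes, and FP replicate 4 lies nearest to PBS among the FP libraries for each of those 8.

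Total counts ran from 9956509 to 13429878 per library. Foxp3, which defines Tregs, was abundant in both groups, at 540 ± 52.9 CPM with FP (n = 4, SD) against 491 ± 7.24 CPM with PBS (n = 3, SD), a difference short of the threshold (adjusted p = 0.292) that turned to -0.07 and -0.13 on the log2 scale under upper-quartile and library-size scaling. The other 4 of 5 Treg markers rose, by 1.69 for Il2ra (which encodes CD25), 1.07 for Tnfrsf18, 0.97 for Ctla4 and 0.54 for Ikzf2, the last not under library-size scaling (0.28, adjusted p = 0.128). Over all genes tested 21.0% passed as higher. The summed level of the 5 Treg markers was 4065 to 4691 CPM with FP and 2251 to 2475 CPM with PBS. Where 18.5% of all genes tested passed as lower after FP, markers of monocytes and macrophages did so for 11 of 11 genes. Their summed level was 499 to 1244 CPM in the PBS libraries and 19.4 to 107 CPM in the FP libraries, and none of them was at 0 in all libraries. Of the most abundant, Vcam1 fell by 4.92 and Csf1r fell by 3.95 on the log2 scale. Scarcer markers of other cells also fell. Zbtb46 and Itgax of dendritic cells did so (summed list 11.7 to 15.5 CPM with FP, 22.8 to 31.3 with PBS), as did Eomes of NK cells (list 1.07 to 1.78 against 6.27 to 9.20). Itga2b of platelets fell too, but the summed platelet list overlapped between the groups (2.38 to 4.08 against 3.98 to 5.34). Itga2b also lost its call with DESeq2 (-0.69, adjusted p = 0.0589) and without any single library except FP replicate 1. In the other lists no tested gene passed as lower in the main comparison. Summed B cell markers overlapped between the groups (17.3 to 28.4 CPM with FP, 16.6 to 29.7 with PBS). So did those of CD8 T cells (7.8 to 12.9 against 8.9 to 9.8) and erythroid cells (9.98 to 28.2 against 12.7 to 29.9). Neutrophil markers were near 0 but higher with FP (0.641 to 1.24 against 0 to 0.147). The part of all these in the changes of PRC2 genes was not tested. Genes of cell division rose, with 20 of 20 S phase genes and 19 of 19 tested genes of G2 and mitosis higher after FP, against 21.0% of all genes. The division genes also differed within the FP group. Their mean log2 CPM over the S phase list was 6.55 to 6.71 in FP replicates 1 to 3, 5.84 in FP replicate 4 and 3.66 to 3.92 in the PBS libraries.

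Ezh2 (ENSMUSG00000029687.16, GRCm38 chromosome 6, 47530139 to 47595341, minus strand) encodes the more active methyltransferase. It measured 194, 181, 197 and 147 CPM in FP replicates 1 to 4 and 50.2, 55.8 and 51.3 CPM in PBS replicates 1 to 3. Every FP library lay above every PBS library, and FP replicate 4 was the lowest of its group. Ezh2 rose 3.42-fold, or 1.78 ± 0.12 SE on the log2 scale (adjusted p = 3.51e-06), which is at percentile 96.9 of the log2 fold changes of all genes tested. Without FP replicate 4 the log2 fold change was 1.86.

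Ezh1 (ENSMUSG00000006920.14, chromosome 11, 101191115 to 101226463, minus strand), the homologue with weaker methyltransferase activity, measured 77.2, 82.3, 77.1 and 95.1 CPM in FP replicates 1 to 4. In PBS replicates 1 to 3 it measured 98.6, 104 and 100.3 CPM. All FP libraries were below all PBS libraries, but FP replicate 4 came close to PBS replicate 1. Ezh1 fell by 0.28 on the log2 scale (SE 0.09, 95% confidence interval -0.49 to -0.07, adjusted p = 0.0375). This call was lost without any single library except FP replicate 4, with adjusted p from 0.0677 to 0.134, and with DESeq2 (-0.24, adjusted p = 0.118).

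The ratio of the homologues within a library needs no scaling between libraries. Per kilobase of exon, Ezh2 stood at 2.80, 2.45, 2.84 and 1.72 times Ezh1 in FP replicates 1 to 4, and at 0.567, 0.600 and 0.570 times Ezh1 in PBS replicates 1 to 3. Ezh1 was thus the more abundant transcript in each PBS library and Ezh2 in each FP library. The mean ratio was 2.45 ± 0.519 with FP (n = 4, SD) against 0.579 ± 0.0185 with PBS (n = 3, SD). The log2 ratio differed by 2.06 between the groups (95% interval 0.93 to 2.61, two-sided exact permutation p = 0.0286, 0.0357 after adjustment over 5 ratios), where 0.0286 is the smallest p that 35 assignments can give. With the longest transcript as the length, the mean ratios were 3.32 and 0.785, with the same order.

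As a share of the summed level of both homologues per kilobase, Ezh2 held 70.5 ± 5.001% with FP (n = 4, SD) against 36.7 ± 0.735% with PBS (n = 3, SD). The summed level itself was 38.0 ± 2.29 CPM per kilobase after FP and 21.4 ± 0.778 CPM per kilobase after PBS. FP replicate 4 had the lowest Ezh2 share of its group, at 63.3%.

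**Figure D2:**
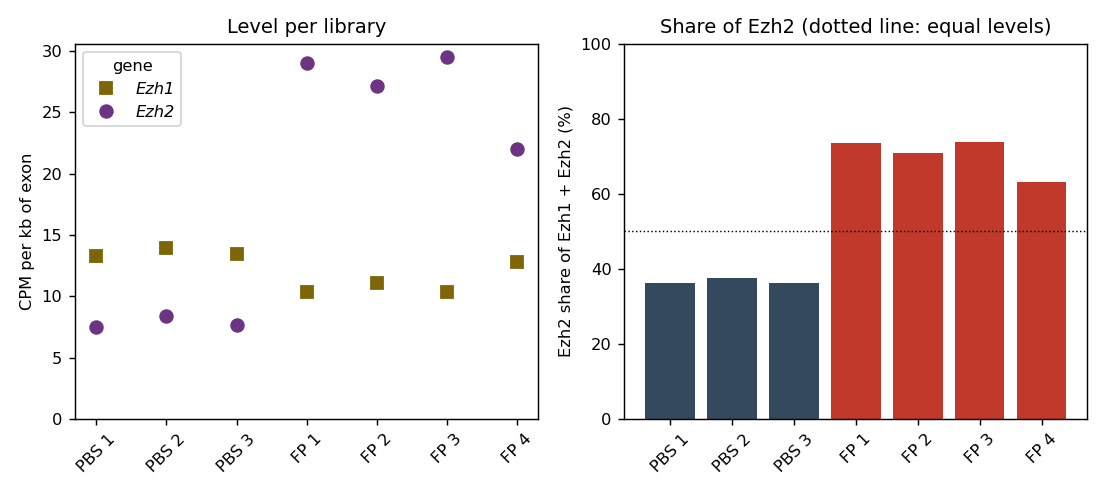
Left, level of Ezh1 (squares) and Ezh2 (circles) in CPM per kilobase of exon in each library. Right, percent of their summed level that is Ezh2, with a dotted line at equal levels; the 3 PBS libraries lie between 36.2% and 37.5% and the 4 FP libraries between 63.3% and 74.0%.

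Both Suz12 and Eed rose less than Ezh2, as the ratios given after them show. Suz12 (ENSMUSG00000017548.15, chromosome 11, 79993106 to 80034123, plus strand), the scaffold on which the complex assembles, measured 180, 178, 171 and 160 CPM in FP replicates 1 to 4 and 115, 103 and 115 CPM in PBS replicates 1 to 3. The groups were clearly apart and the spread within each was small. Suz12 rose 1.55-fold (log2 0.64 ± 0.08 SE, adjusted p = 0.000313).

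Eed (ENSMUSG00000030619.9, chromosome 7, 89954654 to 89980983, minus strand), which binds the H3K27 trimethyl mark and stimulates the enzyme, measured 83.6, 83.1, 72.5 and 70.2 CPM after FP and 61.4, 57.8 and 60.5 CPM after PBS. The FP libraries were higher without overlap, by 1.29-fold (log2 0.37 ± 0.10 SE, adjusted p = 0.0120). The call depended on the scaling: it was lost under upper-quartile scaling (0.16, adjusted p = 0.132), under scaling by library size (0.09, adjusted p = 0.428), and also without PBS replicate 2 (0.34, adjusted p = 0.0609).

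Within libraries, Ezh2 rose relative to both core subunits. The ratio of Ezh2 to Eed per kilobase was 1.33 ± 0.157 with FP (n = 4, SD) against 0.503 ± 0.0449 with PBS (n = 3, SD). The ratio of Ezh2 to Suz12 was 0.770 ± 0.0731 with FP (n = 4, SD) against 0.352 ± 0.0426 with PBS (n = 3, SD). Differences of the log2 ratios were 1.40 (95% interval 1.07 to 1.93) for Eed and 1.13 (0.72 to 1.47) for Suz12. Both had an exact permutation p = 0.0286, or 0.0357 after adjustment over the 5 ratios, and neither ratio overlapped between the groups. Which transcript is the more abundant depends on the length used: per kilobase of the longest transcript, Ezh2 stood at 1.63 times Suz12 after FP and 0.745 times after PBS, and at 1.73 and 0.650 times Eed. The differences between the groups do not depend on it.

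The histone-binding subunits Rbbp4 and Rbbp7 are close homologues that also serve other chromatin complexes. Rbbp4 (ENSMUSG00000057236.10, chromosome 4, 129307100 to 129335370, minus strand) measured 281, 312, 270 and 209 CPM in FP replicates 1 to 4 and 167, 151 and 148 CPM in PBS replicates 1 to 3. Rbbp7 (ENSMUSG00000031353.13, chromosome X, 162760402 to 162779092, plus strand) measured 211, 214, 191 and 139 CPM in FP replicates 1 to 4 and 112, 102 and 98.6 CPM in PBS replicates 1 to 3. Both groups were separate for each gene, with FP replicate 4 the lowest of the FP libraries. Rbbp4 rose 1.73-fold (log2 0.79 ± 0.13 SE, adjusted p = 0.00104) and Rbbp7 1.81-fold (0.86, SE 0.14, adjusted p = 0.00116).

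The pair kept nearly one ratio in all 7 libraries. Per kilobase Rbbp4 stood at 0.475 ± 0.0250 times Rbbp7 with FP (n = 4, SD) against 0.497 ± 0.00318 times Rbbp7 with PBS (n = 3, SD). The difference of the log2 ratios was -0.07, with a 95% interval of -0.30 to 0.11 and an exact permutation p = 0.257. Any change in their ratio beyond that interval was rejected by the test, while smaller changes cannot be told from 0 with these samples.

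The accessory subunits went apart. Phf19 (ENSMUSG00000026873.9, chromosome 2, 34893757 to 34914026, minus strand), a Polycomb-like protein of PRC2.1 with a Tudor domain, measured 25.2, 24.2, 31.4 and 16.2 CPM in FP replicates 1 to 4. In PBS replicates 1 to 3 it measured 2.92, 4.40 and 3.77 CPM, from 33, 60 and 43 counts. It was the scarcest member in both groups, and all FP libraries were above all PBS libraries. Phf19 rose 6.50-fold (log2 2.70 ± 0.25 SE, adjusted p = 3.23e-05), the largest log2 fold change of the 9 members, at percentile 98.2 of all genes tested.

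Mtf2 (ENSMUSG00000029267.17, chromosome 5, 108065674 to 108109004, plus strand), the Polycomb-like homologue of Phf19, measured 70.7, 65.2, 64.0 and 64.7 CPM in FP replicates 1 to 4. It measured 68.0, 65.9 and 64.7 CPM in PBS replicates 1 to 3, so that the groups overlapped fully. Its log2 fold change was 0.00 (95% confidence interval -0.19 to 0.18, adjusted p = 0.988), and turned to -0.27 under scaling by library size, where it passed as lower (adjusted p = 0.0491). Mtf2 shares exonic bases with Tmed5 on the opposite strand, a gene of similar level that rose by 0.71 on the log2 scale (adjusted p = 0.00556). The strand setting of the counting is not known.

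Jarid2 (ENSMUSG00000038518.15, chromosome 13, 44729474 to 44921643, plus strand), the subunit of PRC2.2 that helps to recruit the complex, measured 113, 116, 102 and 120 CPM in FP replicates 1 to 4. It measured 159, 168 and 157 CPM in PBS replicates 1 to 3, and every FP library was below every PBS library. Jarid2 fell by 0.52 ± 0.08 SE on the log2 scale (adjusted p = 0.000972).

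Set against each other per kilobase, Mtf2 plus Phf19 stood at 1.43 ± 0.206 times Jarid2 with FP (n = 4, SD) against 0.745 ± 0.0224 times Jarid2 with PBS (n = 3, SD). The log2 ratio differed by 0.93 (95% interval 0.32 to 1.47, exact permutation p = 0.0286, 0.0357 after adjustment over 5 ratios). The groups did not overlap, at 1.18 to 1.66 after FP and 0.720 to 0.764 after PBS. This ratio covers members only and leaves out Phf1 of PRC2.1 and Aebp2 of PRC2.2. Phf1 fell from 100.2 CPM with PBS to 47.0 CPM with FP, while Phf19 rose from 3.69 to 24.25 CPM. The ratio is therefore not one of all PRC2.1 to all PRC2.2 transcripts.

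**Figure D3:**
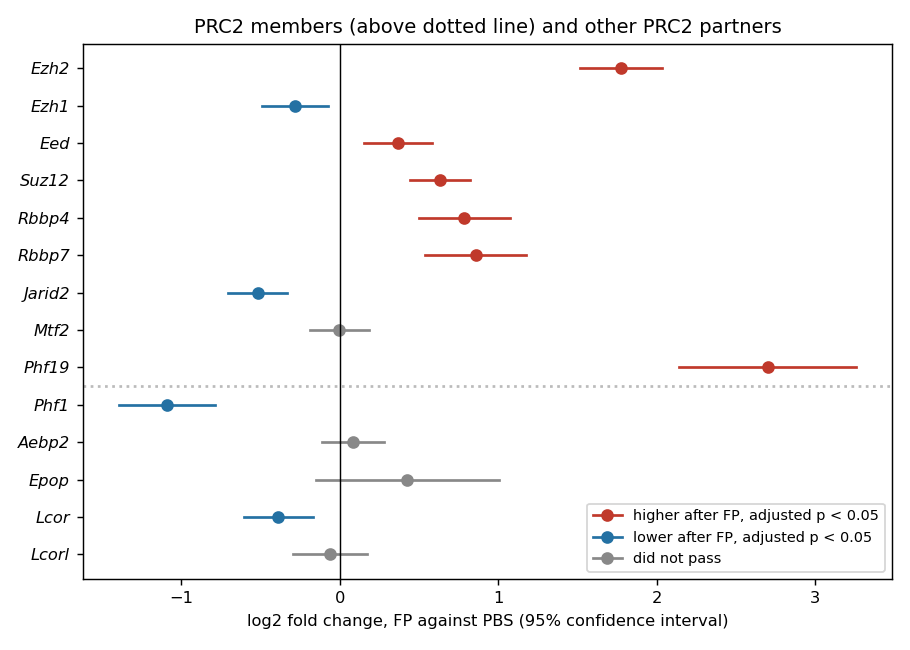
Log2 fold change of FP against PBS with its 95% confidence interval for the 9 PRC2 members and, under the dotted line, 5 other PRC2 partners; red and blue mark genes past an adjusted p of 0.05. Phf19 (2.70) and Ezh2 (1.78) lie far to the right of the other genes, and Phf1 (-1.09) lies farthest to the left.

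Per kilobase of exon, Rbbp7 was the most abundant member in both groups, at 64.9 ± 11.9 CPM per kilobase with FP (n = 4, SD) against 35.7 ± 2.37 with PBS (n = 3, SD). After PBS it was followed by Suz12 (22.4 ± 1.37), Rbbp4 (17.7 ± 1.16), Jarid2 (16.6 ± 0.595), Eed (15.7 ± 0.494), Ezh1 (13.6 ± 0.337), Mtf2 (11.6 ± 0.293), Ezh2 (7.85 ± 0.444) and Phf19 (0.733 ± 0.148). The libraries of the neighbours Rbbp4 and Jarid2 overlapped. After FP the order was Suz12 (34.9 ± 1.76), Rbbp4 (30.6 ± 4.92), Ezh2 (26.9 ± 3.43), Eed (20.2 ± 1.83), Mtf2 (11.6 ± 0.542), Jarid2 (11.6 ± 0.794), Ezh1 (11.1 ± 1.14) and Phf19 (4.81 ± 1.24). In the FP group the libraries of Rbbp4 overlapped those of both Suz12 and Ezh2, and the libraries of Mtf2, Jarid2 and Ezh1 overlapped one another. These orders hold for union exon length. Per kilobase of the longest transcript, the FP order was Rbbp7 (84.1), Ezh2 (64.5), Rbbp4 (57.5), Suz12 (39.4), Eed (37.4), Ezh1 (19.7), Mtf2 (16.3), Jarid2 (13.5) and Phf19 (6.48), and Ezh2 passed both Rbbp4 and Suz12. On union exon length, Ezh2 moved from percentile 63.7 to 88.7 of the levels of all genes tested and Jarid2 from 83.8 to 72.1, while Phf19 stood at 49.3 after FP.

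FP replicate 4 was the lowest FP library for 6 of the 6 members that rose and the highest for 2 of the 2 that fell. The same share over all called genes was not computed, so this is not shown to be particular to PRC2. Over the genes at large FP replicate 4 was also the FP library nearest to PBS. Its counts differed from single PBS libraries by a chi-square per degree of freedom of 36.15 to 46.82, against 53.83 to 117.1 for FP replicates 1 to 3. FP replicate 4 also had the lowest levels of division genes in its group, and the part of these in the PRC2 values was not tested. Between the groups Ezh2 moved less than the typical division gene. Relative to the mean log2 CPM of the S phase list, Ezh2 was 0.89, 0.95, 1.07 and 1.36 higher in FP replicates 1 to 4 but 1.73, 1.99 and 2.03 higher in PBS replicates 1 to 3. The median log2 fold change was 2.60 over the S phase list and 4.70 over the G2 and mitosis list, against 1.78 for Ezh2. Ezh2 lay within the range of the S phase list (1.54 to 4.51), where Mcm7 (1.54), Mcm4 (1.60), Rfc4 (1.63) and Mcm6 (1.72) rose less. It lay below the range of the G2 and mitosis list (2.77 to 5.42). Rrm2 and Cdc6, which act in DNA synthesis and its licensing, rose by 4.51 and 4.15 on the log2 scale, and the proliferation marker Mki67 rose by 4.61. Cenpf and Birc5, of the kinetochore and the chromosomal passenger complex, had the largest rises of the G2 and mitosis list, at 5.42 and 5.30.

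Genes most like Ezh2 were sought among 9685 others with a mean of at least 5 CPM. The measure was the root mean square difference of log2 CPM over the 7 libraries, after centring each gene on its own mean. The nearest was Nsd2, which encodes a methyltransferase of lysine 36 of histone H3, with a difference of 0.0756 and a log2 fold change of 1.75. It was followed by the E2F partner gene Tfdp1 (0.0863), the transporter gene Slc43a3 (0.0994), the centromere gene Cenpl (0.113) and the ATPase gene Atad2 (0.116). For Ezh1 the nearest were Upf3b, of nonsense-mediated decay (0.0324), the splicing factor gene Hnrnph1 (0.0345), Syne1 (0.0353), Thap2 (0.0358) and Zfp626 (0.0396). These likenesses are descriptions over 7 libraries that share the split into 2 groups.

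Of the other PRC2 partners, 5 of 6 were tested, of which 2 fell and 3 stayed uncalled (median log2 fold change -0.06). Over all genes tested 39.5% passed in either direction and 18.5% as lower. Phf1, the remaining Polycomb-like gene, fell by 1.09 on the log2 scale, from 100.2 ± 6.51 CPM with PBS (n = 3, SD) to 47.0 ± 9.04 CPM after FP (SD, n = 4; adjusted p = 0.000210). The Polycomb-like genes therefore had log2 fold changes of 2.70 (Phf19), 0.00 (Mtf2) and -1.09 (Phf1). Lcor, whose locus also encodes a PRC2.1 subunit, fell by 0.39, a call lost without PBS replicate 3 (-0.33, adjusted p = 0.0661). Aebp2, the partner of Jarid2 in PRC2.2, had 0.09 (adjusted p = 0.464). Epop and Lcorl had 0.43 and -0.06 and did not pass, though Lcorl passed as lower with library size alone (-0.33) and Epop as higher with a replicate block (0.57, adjusted p = 0.0465).

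PRC1 is the second Polycomb complex, which ubiquitinates histone H2A. Of 23 subunit genes 4 rose, 7 fell and 12 stayed uncalled (median log2 fold change -0.07), against 21.0% of all genes higher and 18.5% lower, so the total called lies near the background. Yaf2 and E2f6, of variant PRC1 complexes, rose by 0.64 and 0.59. Scmh1 and Cbx7, which encodes a reader of H3K27 trimethylation, fell by 1.06 and 0.93. With library size alone 1 PRC1 gene passed as higher and 11 as lower, and E2f6 no longer passed (0.32, adjusted p = 0.0842). Leaving out PBS replicate 3 ended the call of Yaf2 (0.54, adjusted p = 0.0543).

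Among enzymes that act against the mark, the demethylase gene Kdm6b fell by 0.57 on the log2 scale (adjusted p = 0.000596) and its homologue Kdm6a had -0.02 (adjusted p = 0.871). The acetyltransferase genes Crebbp (-0.16) and Ep300 (0.21) did not pass. Upper-quartile and library-size scaling made Crebbp pass as lower (-0.36 and -0.42), and Ep300 as higher in DESeq2 and without FP replicate 4 (both 0.25). In the complex that removes ubiquitin from H2A, Asxl1 rose by 0.32, a call lost under upper-quartile scaling (0.12), under library-size scaling (0.06) and without FP replicate 3, PBS replicate 2 or PBS replicate 3. Bap1 (0.02) and Asxl2 (-0.22) did not pass, and Asxl2 passed as lower with both those scalings (-0.42 and -0.48) and without FP replicate 4 (-0.27).

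Of 22 other genes of SET-domain methyltransferases, the enzyme family of Ezh1 and Ezh2, 5 rose, 6 fell and 11 stayed uncalled (median log2 fold change -0.06), again near the 39.5% called over all genes. Nsd2 rose by 1.75 and Suv39h1, which methylates lysine 9 of histone H3, by 0.96. Kmt2a and Kmt2c, which methylate lysine 4 of histone H3, fell by 0.69 and 0.60. With upper-quartile factors or library size alone 4 passed as higher and 12 as lower.

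Rbbp4 and Rbbp7 are shared with further complexes, whose own subunits were followed. In the chromatin assembly factor CAF-1, Chaf1a rose by 3.71 on the log2 scale, from 3.73 to 49.3 CPM, and Chaf1b by 1.80. Hat1, the acetyltransferase of new histone H4, rose by 1.30. Of 12 NuRD genes 5 rose and 7 did not pass (median 0.19). Mbd2 rose by 0.78 and Mta2 by 0.53, and with library size alone 1 NuRD gene was higher and 2 were lower and Mta2 did not pass (0.26). Of 10 SIN3 genes 4 rose and 6 did not pass (median 0.32), with rises of 1.43 for Sap30 and 0.52 for Sap18. For both NuRD and SIN3 the share called in either direction lies near the 39.5% of all genes. Every call of both lists was higher, where 21.0% of all genes passed as higher and 18.5% as lower. With upper-quartile factors or library size alone 1 SIN3 gene was higher and 2 were lower, and Sap18 lost its call there and without PBS replicate 2 or 3. In the MuvB core, which regulates cell cycle genes, Lin9 and Lin54 rose by 0.69 and 0.90 and their partner Mybl2 by 3.42. Lin37 (0.23) and Lin52 (0.32) did not pass, and leaving out FP replicate 4 made Lin52 pass as higher (0.41, adjusted p = 0.0367).

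**Figure D4:**
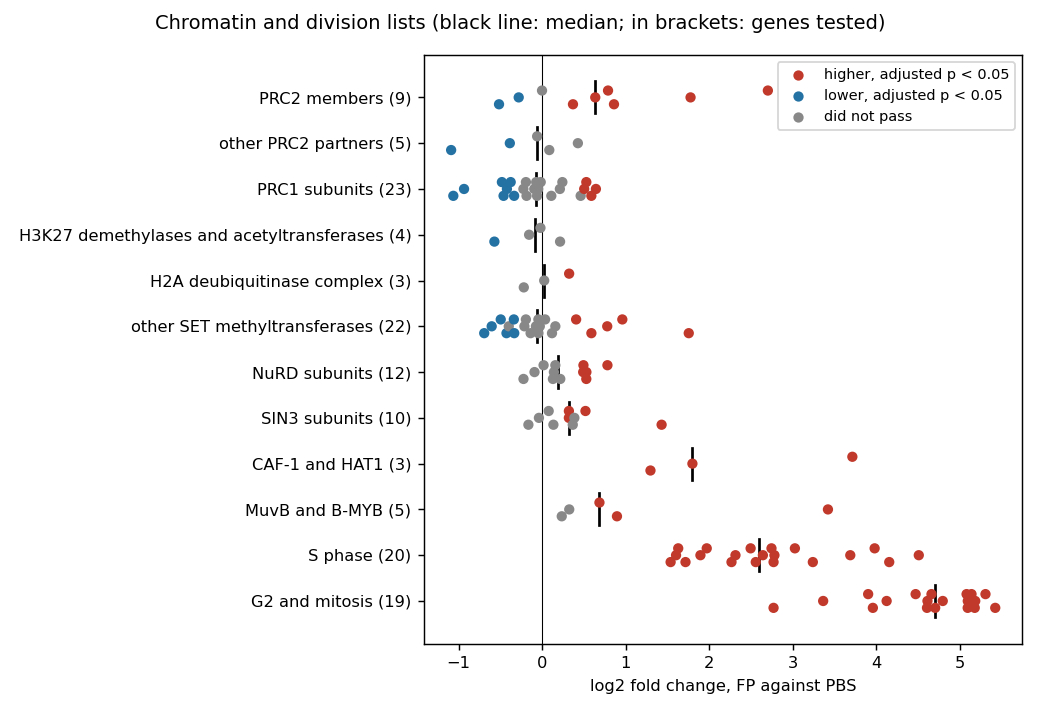
Log2 fold change of FP against PBS for each tested gene of PRC2 and of other chromatin and division lists, with the number of genes tested in brackets and a black line at each median. The medians lie at 0.64 for PRC2, -0.07 for PRC1, 0.19 for NuRD, 2.60 for S phase and 4.70 for G2 and mitosis.

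Of 17 textbook targets of PRC2, 8 passed the filter on low counts, and the other 9, among them 5 Hox genes, were too low to be tested. Of these 8, 5 passed as higher, 1 as lower and 2 did not pass, against 21.0% of all genes higher and 18.5% lower. Genes scarce in 1 group can enter only through the other, as Cdkn2a and Cdkn2b did through FP, so the tally is a description. Cdkn2a, which encodes inhibitors of the cell cycle and is a known PRC2 target, had 34, 79, 42 and 62 counts in FP replicates 1 to 4 and 0, 1 and 2 counts in PBS replicates 1 to 3. The ratio of FP to PBS after scaling was 57.8, with a 95% counting interval of 19.5 to 283. Its neighbour Cdkn2b had 212 counts over the FP libraries and 6 over the PBS libraries, in the ratio 28.3 (95% counting interval 12.8 to 77.8). Both stayed scarce, at 4.73 and 4.66 CPM after FP. The other targets that passed as higher rose by 0.51 to 1.14 on the log2 scale. The smallest of these rises lost its call with library size alone (0.25, adjusted p = 0.135). Eomes, a transcription factor gene of cytotoxic lymphocytes that also served here as a marker of NK cells, fell by 2.12, from 3.89 to 0.878 CPM. H3K27 trimethylation was not measured.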

How the data were processed

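The authors deposited raw counts per gene, not normalized, for 7 libraries. Per the submitters' processing notes and design text, reads were mapped to GRCm38 with STAR (2.5.0b in the notes) and counted on GENCODE M13 with featureCounts 1.5.0; the strand setting is not given in the sources used here. Columns were assigned through the sample titles. Coordinates, exon lengths and overlaps came from GENCODE M21 on the same build. Exons of 6 members overlap an exon of a gene on the opposite strand (Ezh2, Eed, Suz12, Rbbp4, Rbbp7 and Mtf2) and none overlaps one on the same strand, so these counts are less certain.

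The comparison used edgeR 4.0.16 under R 4.3.3 (filterByExpr, TMM factors, robust quasi-likelihood test), with Benjamini-Hochberg adjustment over 15954 genes and a threshold of 0.05. CPM were computed on library sizes multiplied by their TMM factors. Ratios of members used counts per kilobase of exon and a two-sided exact permutation test over 35 assignments; their intervals hold the shifts that this test did not reject. Confidence and counting intervals are at 95%, and counting intervals leave out other error, because PCR copies cannot be recognised without molecular identifiers. Total counts of 9956509 to 13429878 set the precision.

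Alternatives were other scalings, DESeq2 1.42.0, limma-voom (limma 3.58.1), other filters, a replicate block and leaving out each library. The rule for named genes took the 9 members, Foxp3 and Mki67, the 2 largest called rises and falls of each list that is not a marker list, the 5 genes most like Ezh2 and Ezh1, and the 2 most abundant genes of each marker list; any gene of a list of 6 or fewer could be named. Markers of T, CD8, B and erythroid cells and of neutrophils are left unnamed, and Tmed5 was named after its values were seen. The members and lists were chosen with earlier results of these data known.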

Additional observations from a re-analysis of the deposited data

How the results depend on the processing

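Ezh2, Suz12, Rbbp4, Rbbp7, Jarid2 and Phf19 kept their direction and call in 15 of 15 alternatives; Eed did so in 12, Mtf2 in 14 and Ezh1 in 6. Ezh1 did not pass with DESeq2 size factors (-0.26, adjusted p = 0.0529), the DESeq2 test (-0.24, adjusted p = 0.118) or no filter (-0.26, adjusted p = 0.0866); over libraries left out singly it ran from -0.35 to -0.24, and the cause was not tested. The number of members called was 6 to 8 and the number of all genes called 4088 (without PBS replicate 3) to 7277 over libraries left out singly. The share of calls that were higher was 53.2%, but 33.2% under upper-quartile scaling and 28.6% under scaling by library size; the all-gene median shifted from -0.05 to -0.25 and -0.31, and changes are to be read relative to it. The ratios of members do not depend on scaling, and over libraries left out singly the log2 difference for Ezh2 to Ezh1 ran from 1.98 to 2.22, where no p under 0.05 is possible.

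Counts of called genes moved by more than 1.5 times in small lists. Other PRC2 partners went from 2 to 1 without PBS replicate 3, and demethylases and acetyltransferases from 1 to 2 with 4 alternatives. The H2A deubiquitinase list went from 1 to 0 or 2, NuRD from 5 to 3 with library size alone, SIN3 from 4 to 2 and 1 without PBS replicates 2 and 3, and the SET methyltransferases from 11 to 7 without PBS replicate 3.

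The labels give both groups replicate numbers. Deviations from the group means had correlations of 0.219, 0.0702 and 0.0966 between same-numbered libraries, and of -0.329 to 0.394 between differently numbered ones. These values do not settle whether the libraries were paired, and the numbers were not taken as pairs. With a replicate block 7870 genes and 8 members were called, with a log2 fold change of 1.86 for Ezh2 and -0.35 for Ezh1. FP replicate 4 has no PBS library of its number and so drops out of that contrast: leaving it out without a block gave the same rounded values and 7277 genes, so the move of these values cannot be ascribed to the block.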
